A study of Homo sapiens with 12 samples.

Results

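The 10 genes described here encode chemokines and inflammatory cytokines that tumour cells can secrete, namely CXCL1, CXCL2, CXCL3, CXCL5, CXCL8, CXCL16, CCL20, IL6, IL1B and LIF. They were chosen by name as tumour-cell chemokines and cytokines, with earlier results of these data known, and all 10 were found among the 32077 genes of the count table. RNA-seq was performed on 12 samples in 4 groups of 3. Cells labelled PC3 or DU145, which are wild-type, androgen-independent prostate cancer lines, were seeded at 1000000 cells per well and cultured for 48 h with 2.5 µM pentamidine or with vehicle. Pentamidine is an aromatic diamidine used against protozoal and Pneumocystis infections, and its vehicle was sterile water. Each line was grown alone, without immune or stromal cells. Each sample held between 13514195 and 15131436 counted reads. The sources used here do not say whether the 3 samples of a group came from separate cultures, so p-values measure only the spread between these samples, which may be technical.

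Chemokines are small secreted proteins that guide the movement of leukocytes through receptors on the target cell. CXCL1, CXCL2, CXCL3, CXCL5 and CXCL8 carry a glutamate-leucine-arginine motif before their paired cysteines and attract neutrophils through CXCR1 and CXCR2. CCL20 attracts CCR6-bearing lymphocytes and dendritic cells, and CXCL16 is made as a membrane protein that binds CXCR6 and is released by ADAM proteases. IL6 and LIF signal through the shared receptor subunit gp130, and IL1B is a leaderless cytokine cut to its active form by caspase 1. Most of these genes are classical targets of the transcription factor NF-κB, and many of their mRNAs are short-lived through AU-rich elements.

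The cell type labels were first compared with marker genes, and several markers went against them. PC3 is known to lack both copies of CTNNA1, which encodes alpha-catenin, yet the libraries labelled PC3 held at least 6003 counts of CTNNA1. The epithelial markers EPCAM, CDH1 and KRT19 reached at most 2, 10 and 3 counts in any library, whereas KRT18, of the same list, had 2125 to 3085 counts in the libraries labelled PC3 and 9962 to 13423 in those labelled DU145. KRT8 had 238 to 307 counts in the libraries labelled PC3 and 25835 to 38812 in those labelled DU145. Of the other classes, the 7 immune markers summed to 3 to 23 counts per library, with PTPRC at 0 or 1, the 5 fibroblast markers to 8 to 41, and the 4 endothelial markers to 1 to 17. Most of these markers were near 0, with the exceptions of COL1A1 (25 to 40 counts) and ITGAM (8 to 19 counts) in DU145 libraries and COL3A1 (9 to 20 counts) in PC3 vehicle libraries. Their part in the results was not tested. PC3 and DU145 are therefore used below as the names of labelled libraries, and every value stands for the libraries so labelled.

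Where the members lie, and what stands before their starts, is shown first because the members differ in both. The 5 genes CXCL8, CXCL1, CXCL5, CXCL3 and CXCL2 lie in this order along 359 kb of chromosome 4 (73740506 to 74099293, GRCh38, coordinates as deposited), the first pair on the plus strand and the others on the minus strand. CCL20 (227813842 to 227817564, plus strand) and IL1B (112829751 to 112836903, minus strand) are on chromosome 2. IL6 is on chromosome 7 (22725884 to 22732002, plus strand), CXCL16 on chromosome 17 (4733526 to 4739922, minus strand) and LIF on chromosome 22 (30240447 to 30246851, minus strand).

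RefSeq promoter sequence (GRCh38.p14) was matched for 8 of the 10 members, all but CXCL16 and LIF. The 110 bases before each RefSeq start are printed 5′ to 3′ on the gene's strand, because they hold the NF-κB words that set most of the members apart from IL1B. Capitals mark a match to the NF-κB consensus or, in CXCL8, the word GGAATTTCC. The first 5 sequences are the neutrophil-attracting family.
CXCL1, chr4:73869283-73869392, plus strand: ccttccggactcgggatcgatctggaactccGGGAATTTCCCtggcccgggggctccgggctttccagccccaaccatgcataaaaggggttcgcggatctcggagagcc
CXCL2, chr4:74099196-74099305, minus strand: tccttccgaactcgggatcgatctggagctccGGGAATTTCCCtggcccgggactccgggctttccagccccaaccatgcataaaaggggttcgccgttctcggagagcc
CXCL3, chr4:74038690-74038799, minus strand: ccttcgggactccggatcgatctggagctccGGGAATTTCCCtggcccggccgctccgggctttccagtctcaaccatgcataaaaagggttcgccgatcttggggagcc
CXCL5, chr4:73998678-73998787, minus strand: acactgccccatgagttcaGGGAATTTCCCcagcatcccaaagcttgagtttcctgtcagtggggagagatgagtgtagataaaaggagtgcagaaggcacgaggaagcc
CXCL8, chr4:73740459-73740568, plus strand: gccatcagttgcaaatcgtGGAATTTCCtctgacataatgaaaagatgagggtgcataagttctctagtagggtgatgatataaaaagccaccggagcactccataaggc
The remaining 3 are from other families.
CCL20, chr2:227813732-227813841, plus strand: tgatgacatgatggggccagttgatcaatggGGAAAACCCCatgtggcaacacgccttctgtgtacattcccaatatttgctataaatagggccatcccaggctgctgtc
IL6, chr7:22727090-22727199, plus strand: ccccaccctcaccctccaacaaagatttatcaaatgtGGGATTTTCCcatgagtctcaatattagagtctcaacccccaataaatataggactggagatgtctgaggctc
IL1B, chr2:112836780-112836889, minus strand: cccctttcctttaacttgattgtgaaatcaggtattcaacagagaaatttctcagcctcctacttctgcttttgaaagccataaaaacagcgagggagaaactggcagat

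In the 250 bases before the start, searched on both strands, the NF-κB consensus was found in 6 of the 8 members (CXCL1, CXCL2, CXCL3, CXCL5, CCL20 and IL6), against 9.96% of 35116 RefSeq promoters. The word GGAATTTCC, picked after these sequences were seen, stood in CXCL1, CXCL2, CXCL3, CXCL5 and CXCL8 and in 0.413% of all promoters. It overlaps the consensus match in CXCL1, CXCL2, CXCL3 and CXCL5. All these matches began between 91 and 73 bases before the start. An AP-1 word (TGANTCA) was found in CXCL8 alone of the 8 members and in 6.57% of promoters. TATAAA was found in CXCL8 and CCL20 and in 10.7% of promoters, and the C/EBP-ATF word TGATGNAA in none of the 8 members and 3.14% of promoters. These are matches of letters, not sites shown to be bound. The deposited starts of IL6, CXCL8, CXCL2, CXCL3, CXCL5 and IL1B lie upstream of the RefSeq starts used here. Part or all of their printed bases therefore lies inside the genes as deposited.

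**Figure D1:**
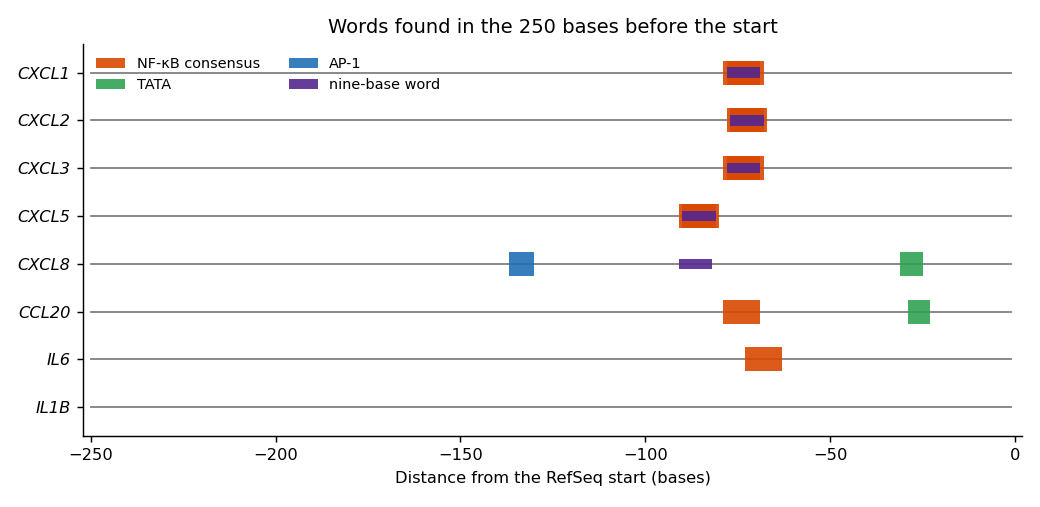
Positions of the words found in the 250 bases before the RefSeq start of 8 members, with distance from the start in bases on the x axis and a row for each gene. The NF-κB consensus (orange) and the word GGAATTTCC (purple, drawn as nine-base word) lie between 91 and 64 bases before the start, and IL1B holds none of the words.

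A member was taken as detected in a group when each of its 3 samples had more than 3 counts, a level that corresponds to 0.198 to 0.222 CPM (read counts scaled to a common library total). By this measure 9 members were detected in PC3 with either vehicle or pentamidine, and 8 in DU145. CXCL5 was the member missing from both lines. It had 0 counts in all 6 PC3 samples, which does not exclude a low level. In DU145 it had 0, 2 and 0 counts with vehicle and 0, 1 and 0 with pentamidine, all at the limit. CXCL5 lies between CXCL1 and CXCL3, which were both detected in every sample. IL1B was the member that separated the lines, with 19 to 24 counts in PC3 vehicle samples and 0 or 1 in DU145 vehicle samples. The limit of 3 counts was a fixed setting, and spread beyond counting error is not covered by it.

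Levels were then compared between genes as CPM per kilobase of exon. The length covers all annotated exons of a gene, and close ranks may depend on this choice, which was not varied. In PC3 with vehicle, CXCL1 stood first at 137 ± 6.17 (SD, n = 3), followed by LIF at 75.1 ± 2.91, CXCL8 at 57.8 ± 2.65 and CXCL2 at 11.1 ± 0.41. IL6 at 6.19 ± 0.547, CCL20 at 5.3 ± 0.0534, CXCL3 at 2.47 ± 0.298, CXCL16 at 1.83 ± 0.143 and IL1B at 0.489 ± 0.078 followed. No neighbouring pair overlapped between samples in this order. In DU145 with vehicle the order again began with CXCL1 at 260 ± 10.4 and LIF at 126 ± 5.28, but CCL20 came next at 36.5 ± 1.97, before CXCL8 at 25.6 ± 0.877 and IL6 at 21.4 ± 1.35. CXCL2 at 3.98 ± 0.848 and CXCL16 at 3.54 ± 0.384 overlapped, and CXCL3 was lowest of the 8 detected genes at 2.45 ± 0.422.

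With pentamidine, LIF stood above CXCL1 in both lines. In PC3, LIF was at 118 ± 2.85 and CXCL1 at 92.0 ± 2.88 CPM per kilobase, and the order of the other genes was that of the vehicle samples. In DU145, LIF was at 77.7 ± 2.87 and CXCL1 at 44.0 ± 2.73. The samples of IL6 (4.1 ± 0.67) and CXCL16 (3.46 ± 0.21) overlapped there, as did those of CXCL8 (2.45 ± 0.49) and CXCL2 (1.78 ± 0.46). The ratio of CXCL1 to CXCL8, both per length, was 2.37 ± 0.161 in PC3 vehicle samples, 1.76 ± 0.0802 in PC3 pentamidine samples, 10.2 ± 0.715 in DU145 vehicle samples and 18.4 ± 3.42 in DU145 pentamidine samples (SD, n = 3 each).

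**Figure D2:**
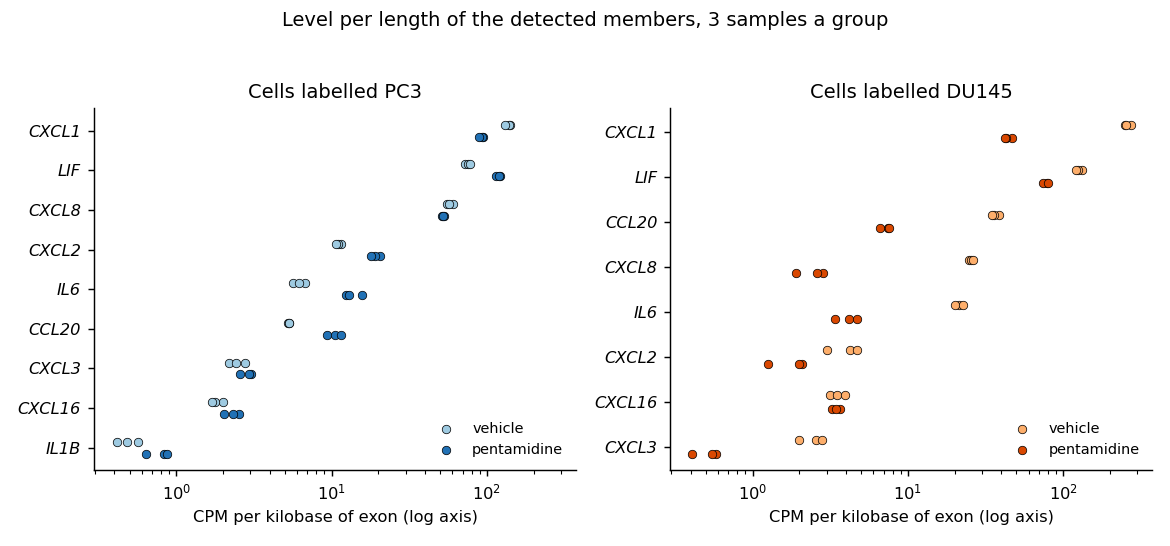
Level of each detected member in CPM per kilobase of exon (log axis), with a point for each of 3 samples per group and genes ordered by their level with vehicle. LIF and CXCL1 lie at the top in both lines, and in DU145 the pentamidine points lie left of the vehicle points for every gene shown except CXCL16.

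Before treatment the lines differed in most members, as they did in most of all genes tested. Differences were tested by the quasi-likelihood method of edgeR, with p adjusted over all genes by Benjamini and Hochberg's approach; "rose", "fell", "higher" and "lower" are used at adjusted p below 0.05, and a gene is called when its log2 fold change also exceeds 1 in size, the threshold of the study. Of 9 members tested between vehicle samples, 5 were higher in DU145 and 3 lower, where 33.8% and 31.5% of 14394 genes were. Called members numbered 2 higher and 3 lower, against 11.7% and 7.52% of genes. Both counts of 3 include IL1B, which passed the filter on low counts only through its PC3 samples. The members' median difference was 0.78 on the log2 scale and that of all genes 0.01.

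CCL20 differed most among the members detected in both lines. It was at 7.04, 7.18 and 7.14 CPM in PC3 vehicle samples and at 52.0, 47.9 and 47.0 CPM in DU145 vehicle samples, a log2 difference of 2.80 ± 0.088 (SE, adjusted p = 9.4e-14). IL6 was also higher in DU145, by 1.81 ± 0.090 (adjusted p = 3.0e-11). CXCL16, CXCL1 and LIF were higher in DU145 by 0.98, 0.95 and 0.78, under the limit for a call. Without PC3 vehicle sample 1 or DU145 vehicle sample 1, CXCL16 passed that limit, at 1.03 and 1.05.

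Lower in DU145 were CXCL2, by -1.45 ± 0.140 (adjusted p = 1.3e-07), and CXCL8, by -1.15 ± 0.057 (adjusted p = 3.5e-11). IL1B also stood lower, but it passed the filter on low counts only through its PC3 samples, so its p-value is not given. The DU145 samples held 2 counts in all against 66 in PC3. Scaled by library totals, the ratio of PC3 to DU145 was 33.1, with an exact 95% interval of 8.81 to 279. This interval covers counting error in the summed reads only, not the spread between samples. CXCL3 gave 0.01 ± 0.175 (adjusted p = 0.95), with overlapping samples. Thus genes of the same family on chromosome 4 stood on different sides of the comparison, with CXCL1 higher and CXCL2 and CXCL8 lower in DU145.

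In DU145, most of the detected chemokines and cytokines fell with pentamidine. Of 8 members tested, 7 fell and none rose, where 16.8% of 14313 genes fell and 17.2% rose. Of these, 6 were called lower, against 0.657% of genes, and none was called higher, against 1.37% of genes. All genes called in DU145 were 196 higher and 94 lower, a share of 67.6% higher, which became 56.0% with limma on log2(CPM + 1). The members' median change was -2.29 on the log2 scale and that of all genes 0.008. The remaining members were CXCL16, which was tested without passing, and CXCL5 and IL1B, which were too low to test. In cultures harvested whole, fewer cells making a transcript and less of it per cell cannot be told apart.

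Among the neutrophil-attracting chemokines, CXCL8 fell furthest. Its level was 56.3, 58.2 and 60.3 CPM with vehicle and 6.5, 4.34 and 5.9 CPM with pentamidine, so that 9.57 ± 1.91% (SD, n = 3) of the vehicle level was left. The groups lay far apart, and the log2 fold change was -3.38 ± 0.092 (SE, adjusted p = 1.7e-35). CXCL1, the most abundant of these chemokines, went from 352, 327 and 331 CPM to 61.1, 55.2 and 54.8 CPM. All vehicle samples were above all pentamidine samples, with 16.9 ± 1.05% left and a log2 fold change of -2.56 ± 0.042 (adjusted p = 6.3e-46).

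CXCL3 and CXCL2 were present at lower levels. CXCL3 was at 5.66, 6.23 and 4.4 CPM with vehicle and 1.29, 1.22 and 0.903 CPM with pentamidine, again without overlap, and fell by 2.24 ± 0.242 on the log2 scale (adjusted p = 7.0e-11). CXCL2 fell least of the family, from 6.33, 4.55 and 7.01 CPM to 3.14, 2.98 and 1.87 CPM, a log2 fold change of -1.15 ± 0.203 (adjusted p = 8.2e-06). Its call at the fold limit was lost without pentamidine sample 3 (-0.96) and with limma on log2(CPM + 1) (-0.88), while the adjusted p stayed under 0.05 in both. The transcripts of CXCL1, CXCL2 and CXCL3 share 84.9% to 91.2% of their aligned bases, with identical runs of up to 97 bases. The study sequenced paired reads longer than such runs. How reads were split among these 3 genes was not tested.

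CCL20, the lymphocyte and dendritic cell attractant, had 698, 685 and 684 counts with vehicle and 140, 131 and 146 counts with pentamidine in DU145. The groups did not overlap, 19.7 ± 1.4% of the vehicle level was left, and the log2 fold change was -2.33 ± 0.083 (adjusted p = 3.4e-30). CXCL16 stood apart from the other chemokines. It was at 8.87, 9.8 and 11.0 CPM with vehicle and 9.07, 10.2 and 9.65 CPM with pentamidine, overlapping groups with a log2 fold change of -0.03 ± 0.123 (adjusted p = 0.88) whose sign turned under several alternatives, up to 0.05.

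Of the cytokines, IL6 went from 44.2, 41.6 and 47.2 CPM to 8.64, 9.77 and 7.01 CPM in DU145. Every vehicle sample exceeded every pentamidine sample, and IL6 fell by 2.38 ± 0.092 on the log2 scale (adjusted p = 1.7e-28), with 19.1 ± 3.13% left. LIF, the most abundant member by CPM, went from 525, 495 and 484 CPM to 311, 296 and 318 CPM. Its fall was smaller, with a log2 fold change of -0.70 ± 0.034 (adjusted p = 4.6e-24) and 61.5 ± 2.27% left, and it was not called for size. IL1B had 1, 1 and 0 counts with vehicle and 5, 2 and 0 with pentamidine. The ratio of the summed counts, 7 to 2, scaled by library totals, was 3.56 with an exact 95% interval of 0.678 to 35.1, which does not settle a direction. That interval also leaves out the spread between samples.

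**Figure D3:**
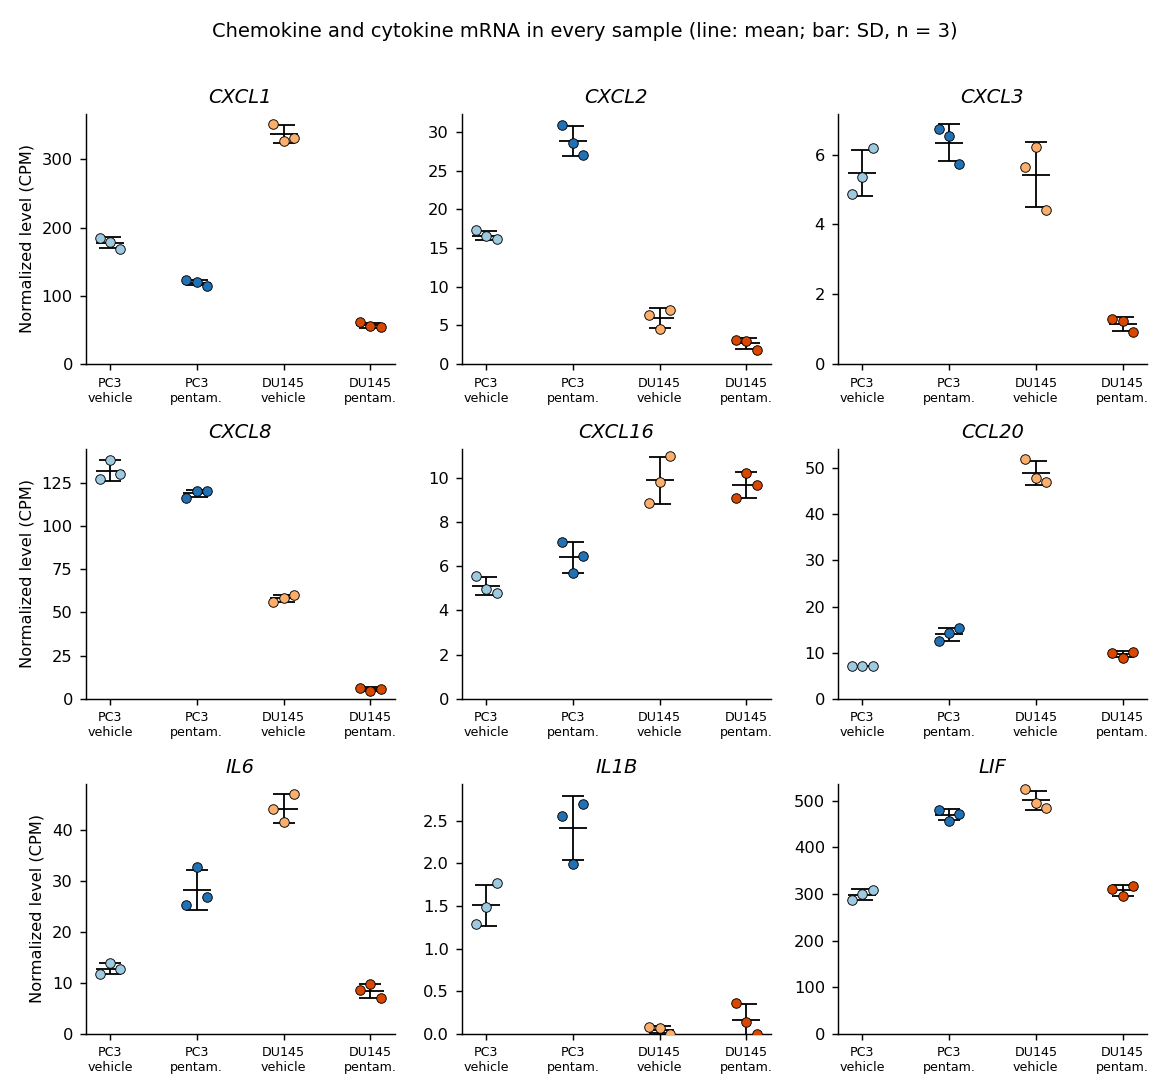
Normalized level (CPM, linear axes from 0) of the 9 members with counts in PC3, in each of the 12 samples, with the mean as a line and the SD as a bar (n = 3 per group). In DU145 the pentamidine samples lie below the vehicle samples for CXCL1, CXCL2, CXCL3, CXCL8, CCL20, IL6 and LIF, whereas in PC3 they lie above them for CXCL2, CXCL16, CCL20, IL6, IL1B and LIF.

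In PC3 the same treatment gave changes of mixed direction and smaller size. Of 9 members tested, 5 rose (CXCL2, CCL20, IL6, IL1B and LIF) and 2 fell (CXCL1 and CXCL8), where 21.7% of 13861 genes rose and 21.7% fell. Only IL6 was called, higher, against 3.44% of genes called higher and 1.31% called lower. The members' median change was 0.66 on the log2 scale and that of all genes 0.005.

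IL6 rose from 11.7, 14.0 and 12.7 CPM to 25.4, 32.8 and 26.8 CPM in PC3. All pentamidine samples were above all vehicle samples, with a log2 fold change of 1.15 ± 0.112 (adjusted p = 3.0e-07). CCL20 rose from 7.04, 7.18 and 7.14 CPM to 12.5, 14.3 and 15.4 CPM, a log2 fold change of 0.98 ± 0.124 (adjusted p = 6.1e-06). It fell just short of a call, which it gained without pentamidine sample 1 (1.06), so that called members were 2 there. LIF rose from 286, 299 and 309 CPM to 480, 457 and 472 CPM, without overlap and by 0.66 ± 0.049 (adjusted p = 1.0e-08).

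CXCL2 also rose in PC3, from 17.3, 16.5 and 16.1 CPM to 30.9, 28.6 and 27.0 CPM, a log2 fold change of 0.80 ± 0.087 (adjusted p = 1.1e-06). The groups did not overlap, and 173 ± 11.8% of the vehicle level was reached. CXCL1 moved the other way, from 185, 179 and 169 CPM to 123, 120 and 115 CPM, and fell by 0.57 ± 0.053 on the log2 scale (adjusted p = 1.6e-07). CXCL3 was at 4.88, 5.37 and 6.19 CPM with vehicle and 6.75, 6.54 and 5.73 CPM with pentamidine, and these overlapping groups differed by 0.22 ± 0.158 (adjusted p = 0.29).

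Of the members that passed the test in PC3, CXCL8 changed least. It was at 127, 138 and 130 CPM with vehicle and at 116, 120 and 120 CPM with pentamidine, a log2 fold change of -0.14 ± 0.054 (adjusted p = 0.040) with no overlap of the groups. IL1B had 19, 23 and 24 counts with vehicle and 38, 28 and 40 with pentamidine, a log2 fold change of 0.68 ± 0.264 (adjusted p = 0.045). Both results rest near the threshold, as the adjusted p over the alternatives ran from 0.0098 to 0.15 for CXCL8 and from 0.039 to 0.14 for IL1B. Leaving out vehicle sample 2 or pentamidine sample 1, 2 or 3 each took CXCL8 past 0.05, and leaving out vehicle sample 1 or 2 or pentamidine sample 1 or 3 did so for IL1B. CXCL16 was at 5.55, 4.98 and 4.79 CPM with vehicle and 7.08, 5.69 and 6.48 CPM with pentamidine, a difference of 0.33 ± 0.156 that missed the threshold (adjusted p = 0.096) although the groups did not overlap.

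**Figure D4:**
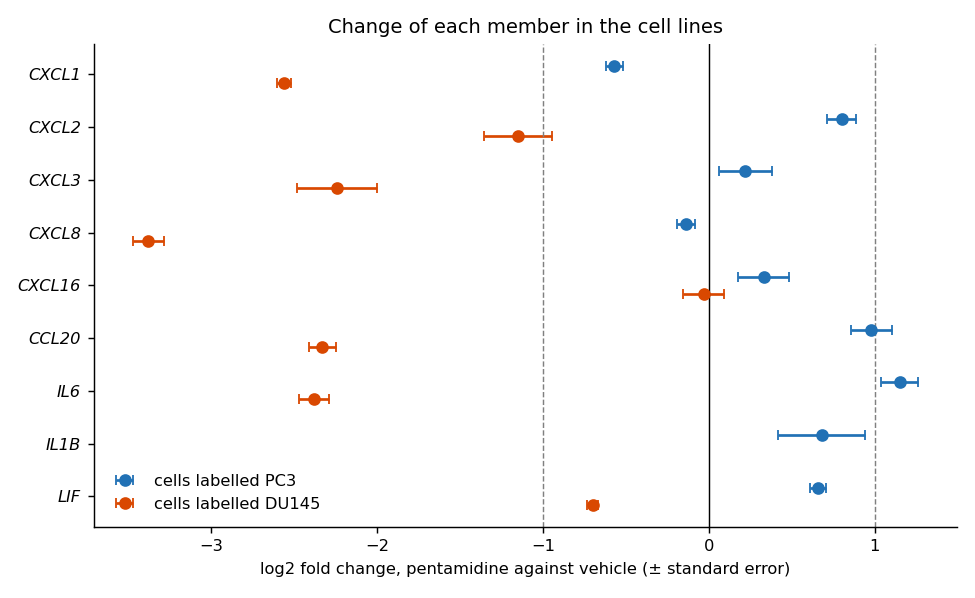
Log2 fold change of each member with pentamidine against vehicle, with its standard error, in PC3 (blue) and DU145 (orange), where dashed lines mark a log2 fold change of 1 in either direction. CXCL8 reaches -3.38 in DU145 and -0.14 in PC3, and IL6 lies at -2.38 and 1.15; IL1B was not tested in DU145.

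Whether the response differed between the lines was tested directly, as the interaction of treatment and cell line over all 12 samples. The change was more negative in DU145 for 7 of 9 members tested and more positive for none, where 10.2% and 10.3% of 15226 genes were. For all genes this split was 50.3% more positive, and it became 66.7% with scaling by library size alone, 65.6% with limma on log2(CPM + 1) and 65.9% with limma on log2(CPM + 0.1), while the same count of 7 members held under each of these. The difference was -3.52 ± 0.154 (log2, SE, adjusted p = 1.2e-15) for IL6, -3.32 ± 0.141 (adjusted p = 7.4e-16) for CCL20 and -3.24 ± 0.108 (adjusted p = 7.8e-18) for CXCL8. CXCL3, CXCL1, CXCL2 and LIF followed at -2.46, -1.99, -1.95 and -1.36. CXCL16 gave -0.36 ± 0.193 (adjusted p = 0.20) and IL1B 0.93 ± 1.055 (adjusted p = 0.60). IL6, CCL20, CXCL2 and LIF rose in PC3 and fell in DU145, whereas CXCL1 and CXCL8 fell in both lines and further in DU145. The share of counts from mitochondria-encoded genes went from 3.79% to 3.91% down to 2.66% to 2.76% in PC3 and from 4.41% to 4.66% down to 1.97% to 2.07% in DU145, and without these genes every member kept its side of the threshold in each comparison.

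**Figure D5:**
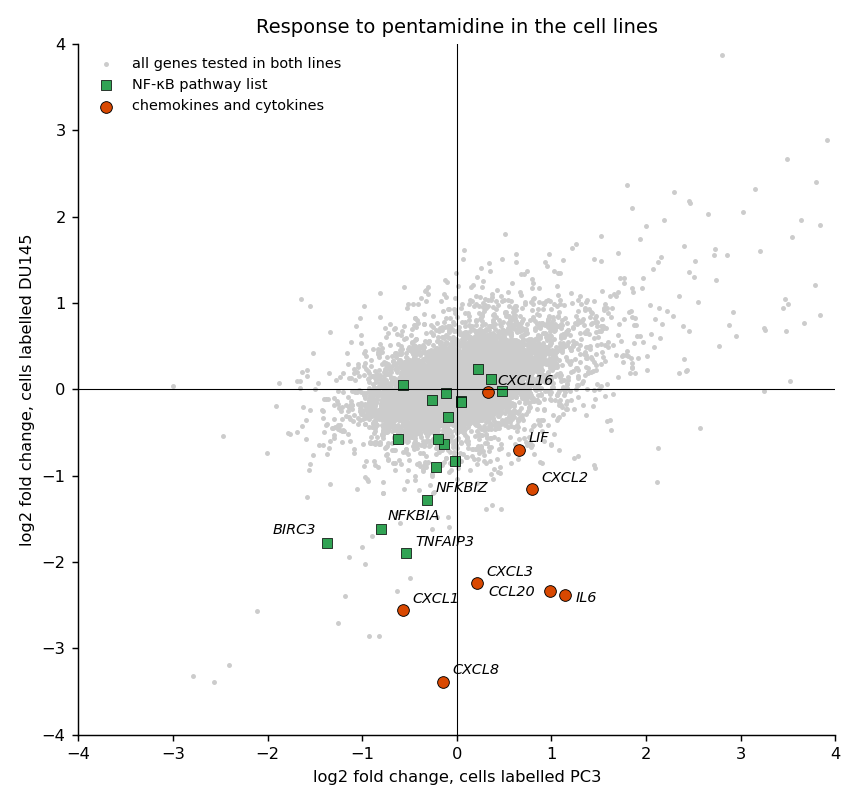
Log2 fold change with pentamidine in PC3 (x axis) and DU145 (y axis) for 13125 genes tested in both lines (grey), the 18 genes of the NF-κB list (green squares) and the 8 members tested in both (orange circles); 20 genes lie outside the axes. CXCL1, CXCL3, CXCL8, CCL20 and IL6 lie below -2 in DU145, and NFKBIA, TNFAIP3, NFKBIZ and BIRC3 lie below 0 in both lines.

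NF-κB factors, their inhibitors and their feedback targets are the pathway most closely tied to the members. Of 18 such genes, all tested in both lines, 11 fell and none rose in DU145, where 16.8% and 17.2% of all genes did. In PC3, 8 fell and 2 rose, where 21.7% of all genes did each way. The list's median change was -0.45 in DU145 and -0.16 in PC3. TNFAIP3, which encodes the ubiquitin-editing inhibitor A20, was at 37.1 to 39.3 CPM in DU145 vehicle samples and 10.1 to 10.3 CPM with pentamidine, a log2 fold change of -1.89, and gave -0.54 in PC3. BIRC3, an inhibitor of apoptosis and NF-κB target, was called in both lines, at -1.78 in DU145 and -1.37 in PC3. NFKBIA, which encodes the inhibitor IκBα, fell by 1.62 in DU145 and by 0.81 in PC3, and NFKBIZ, a nuclear cofactor for IL6 transcription, by 1.28 and by 0.32. For all 4 the adjusted p was at most 0.0016. The change in DU145 was the more negative for each, with interaction terms of -1.35, -0.41, -0.81 and -0.96 (adjusted p at most 7.5e-04). These directions are those of CXCL1 and CXCL8, and in PC3 they are opposite to those of CXCL2, CCL20, IL6 and LIF.

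Transcription factors of the bZIP and C/EBP families, which include AP-1 and the stress factors that bind C/EBP-ATF sites, were compared next. In PC3, 8 of 13 rose and 1 fell (21.7% of all genes each way), and in DU145, 6 rose and 4 fell (17.2% and 16.8% of all genes), with medians of 0.51 and -0.01. ATF3, a stress-induced repressor and activator, had 33 to 41 counts with vehicle and 442 to 535 with pentamidine in PC3, a log2 fold change of 3.79. In DU145 it had 8 to 16 against 57 to 76 counts, a log2 fold change of 2.41. There, ATF3 passed the filter on low counts only through the pentamidine samples. DDIT3, which encodes CHOP, rose by 2.74 in PC3 and 1.27 in DU145. CEBPG and CEBPB rose by 1.56 and 1.38 in PC3 and by 0.99 and 0.69 in DU145. The PC3 vehicle samples of CEBPB were spread, at 23.9 to 50.7 CPM, against 87.7 to 90.0 CPM with pentamidine. Each of these rises was smaller in DU145 by the interaction test, with an adjusted p of at most 0.014.

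Regulators of mRNA decay, such as the ZFP36 proteins that bind AU-rich elements, numbered 11 and none was called. In DU145, 2 fell and none rose (16.8% and 17.2% of all genes), and in PC3, 4 fell and 2 rose (21.7% of all genes each way), with medians of -0.02 and -0.11. AU-rich words were counted in the 3′ untranslated region of the longest annotated protein-coding transcript of each gene (GENCODE 29). TTATTTATT was found in 6 of the 10 members, 5 times in CXCL2, 3 in CXCL1, 2 each in IL1B and LIF and once each in CXCL3 and CXCL8, and in 8.51% of 16718 genes. The shorter word ATTTA occurred between 1.02 times per kilobase in CXCL16 and 14.0 in IL6, with a median of 1.53 over all genes. CXCL16 was the member below that median.

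The receptors for the neutrophil-attracting chemokines were near 0. CXCR1 and CXCR2 reached at most 1 and 2 counts in any sample. IL6ST, which encodes the shared subunit gp130, had 2323 to 4228 counts. LIFR, the subunit for LIF, had 34 to 70 counts in PC3 and 299 to 407 in DU145. IL6R, the subunit for IL6, was low, with 9 to 18 counts in PC3 and 21 to 32 in DU145. Of the 16 receptors, 7 were tested in PC3 and 8 in DU145; 1 rose and 1 fell in PC3, 1 rose and 2 fell in DU145, and none was called, so that these counts were near the shares of all genes (21.7% each way in PC3, 17.2% and 16.8% in DU145). Of 10 JAK, STAT and feedback genes, 9 were tested in each line, where 4 rose and 4 fell in PC3 and 1 rose and 2 fell in DU145, the latter near the same shares, with none called.

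Other cytokines and chemokines were compared as neighbours in function. Of 26 other cytokines, 13 were tested in PC3 (2 rose, 6 fell, median -0.41) and 11 in DU145 (1 rose, 6 fell, median -0.52). Of all genes, 21.7% rose and 21.7% fell in PC3, and 17.2% rose and 16.8% fell in DU145. CSF3, the granulocyte growth factor, fell from 12.8 to 13.6 CPM down to 1.04 to 2.37 CPM in DU145 (-2.86) and by 0.82 in PC3. TNF, an inducer and target of NF-κB, fell by 2.02 in DU145 and by 0.97 in PC3, and LTB, which encodes lymphotoxin beta, by 1.71 in DU145. CSF2, the granulocyte-macrophage growth factor, had 42 to 77 counts in PC3 vehicle samples and 6 to 9 with pentamidine (-2.92), and was too low to test in DU145. In PC3, CSF2 passed the filter on low counts only through the vehicle samples. CSF3 and TNF thus fell in both lines, and their fall was larger in DU145 (interaction -2.04 and -1.06, adjusted p = 1.6e-07 and 9.5e-05). Of 30 other chemokines, 14 were listed in the table and none was detected in PC3. CCL2, the monocyte attractant, and CCL28 were detected in DU145, and CCL2 fell there from 35 to 49 counts down to 14 to 23 (-1.34, adjusted p = 1.2e-04).

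Of 8 genes of processing and release, 5 were tested in PC3 (2 rose, 1 fell) and 6 in DU145 (1 rose, 1 fell), beside 21.7% of all genes each way in PC3 and 17.2% and 16.8% in DU145. NLRP1, an inflammasome sensor, rose by 2.09 in PC3 and 0.81 in DU145, and NLRP3, another such sensor, fell by 1.53 in DU145, from 95 to 117 counts down to 34 to 46. CASP1, which encodes the protease that matures IL1B, had at most 2 counts in any sample. Of 8 genes next to or near the chromosome 4 chemokines, 6 were tested in each line, with 3 rising and 2 falling in PC3 and 1 rising and 2 falling in DU145, beside the same shares of all genes. EREG, an EGFR ligand, rose by 1.03 in PC3 and fell by 0.51 in DU145 (interaction -1.54, adjusted p = 1.8e-13), the directions seen for CXCL2. BTC, also an EGFR ligand, rose by 2.17 in PC3, from 2 to 5 counts up to 15 to 22, and by 0.76 in DU145. In PC3, BTC passed the filter on low counts only through the pentamidine samples.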

How the data were processed

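Oligo(dT)-enriched mRNA was sequenced as paired-end reads, which the authors aligned with HISAT2 (2.1.0) to GRCh38 (submitters' processing notes); the counting program and strand setting are not given in the sources used here. The deposited counts are whole reads per gene, not normalized. Of 33639 lines, 44 without counts were left out. A second deposited table holds the same reads scaled to a common total per sample, and 2 others hold the authors' comparisons (DESeq 1.18.1: log2 fold changes, p-values); none was used.

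Counts were tested in R 4.3.3 with edgeR 4.0.16 (TMM, filterByExpr at a minimum count of 10, quasi-likelihood test), each line on its own and the interaction over all 12 samples. Standard errors came from the F statistic. CPM were scaled by TMM over 12 samples and divided by exon length (GENCODE 29) where genes were compared. Alternatives were DESeq2 1.42.0, limma 3.58.1, other scalings, no filter, a replicate block and leaving out each sample. Scripts were tested on simulated data.

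The members and lists were chosen with earlier results of these data known. From each further list, genes called in PC3 or DU145 were named, at most 4 per list by size of change. CXCR1, CXCR2, IL6ST, LIFR, IL6R, CCL28 and CASP1 were named after their values were seen. The 5 genes nearest to CXCL8 in pattern were taken by the root mean square difference of centred log2 CPM.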

Additional observations from a re-analysis of the deposited data

Results flagged for a closer look

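For 7 of 9 members tested the change with pentamidine differed between the lines by the interaction test over 12 samples (edgeR, adjusted over 15226 genes). All 7 changes were more negative in DU145. Of all genes tested, 10.2% had a more negative and 10.3% a more positive change in DU145. The change in DU145 minus that in PC3, on the log2 scale, was -3.52 for IL6, -3.32 for CCL20, -3.24 for CXCL8, -2.46 for CXCL3, -1.99 for CXCL1, -1.95 for CXCL2 and -1.36 for LIF, with adjusted p between 7.8e-18 (CXCL8) and 1.7e-07 (CXCL3). For IL6, CCL20, CXCL2 and LIF, all 3 pentamidine samples were above every vehicle sample in PC3 and below every vehicle sample in DU145. The share of all genes with such a separation was not counted. In the libraries labelled PC3, counts of CTNNA1 were present although that line is known to lack this gene, and these differences stand for the libraries so labelled.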

How the results depend on the processing

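Over all alternatives, 541 member changes kept their direction and their call, which needs both the adjusted p and, within a line or between lines, the fold limit. By adjusted p alone, CXCL8 and IL1B in PC3 passed in some alternatives and not in others (up to 0.15 and 0.14). CXCL2 in DU145 lost its call with limma on log2(CPM + 1) (-0.88) and without pentamidine sample 3 (-0.96), CCL20 in PC3 gained one without pentamidine sample 1 (1.06), and CXCL16 between vehicle samples gained one without PC3 sample 1 (1.03) or DU145 sample 1 (1.05). Signs turned for changes that passed no test: CXCL16 in DU145 (0.02 with library size alone and with limma at either pseudocount, 0.05 and 0.01 without vehicle sample 3 or pentamidine sample 1), IL1B in the interaction (-0.29 with limma on log2(CPM + 1), -0.21 without DU145 pentamidine sample 1) and CXCL3 between vehicle samples (-0.07 with library size alone, 0.00 without a filter, -0.06 and -0.07 with limma, and -0.07, -0.01, -0.02 and -0.10 without single samples). Without single samples these 3 ran from -0.11 to 0.05, from -0.21 to 1.49 and from -0.10 to 0.15. Why these moved was not tested.

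Genes called with limma on log2(CPM + 1) numbered 332 in PC3 against 658, and 109 in DU145 against 290, since a pseudocount shrinks changes of low genes. At adjusted p alone, called genes were 6010 in PC3, 4860 in DU145 and 9405 between vehicle samples, and called members 7 in PC3 and 8 between vehicle samples. Leaving out single samples gave 1 to 2 called members in PC3, 5 to 6 in DU145, 7 in each interaction fit and 5 to 6 between vehicle samples, with 654 to 741, 293 to 319, 2644 to 3268 and 2876 to 2990 genes.

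Replicate numbers did not pair the samples (correlations of deviations from -0.156 to 0.052). With the replicate block 648 genes were called in PC3, 285 in DU145, 2803 in the interaction and 2773 between vehicle samples, and members called stayed 1, 6, 7 and 5; CXCL8 and IL1B in PC3 missed 0.05 (adjusted p = 0.066 and 0.069). CXCL5 and, in DU145, IL1B had too few counts to test.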

Other observations

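The 5 genes outside the members whose pattern over the 12 samples was most like that of CXCL8, of 13117 genes ranked, were CLEC4E, TNFAIP2, TGFBI, SLC16A7 and CSF3. Their root mean square differences from CXCL8 in centred log2 CPM were 0.572, 0.795, 0.909, 0.949 and 0.965. CLEC4E, a C-type lectin receptor of myeloid cells, had 149 to 174 counts in PC3 vehicle samples and 101 to 132 with pentamidine, and 28 to 37 against 6 to 8 in DU145. Its log2 fold changes were -0.50 in PC3 (adjusted p = 0.0062) and -2.18 in DU145. In DU145, CLEC4E passed the filter on low counts only through the vehicle samples. TNFAIP2, a TNF-induced gene, rose by 0.47 in PC3 and fell by 1.39 in DU145. TGFBI, an extracellular matrix protein, fell by 1.05 in PC3 and by 1.15 in DU145.

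Among the members, CXCL2 (0.913) and CXCL3 (0.947) were nearest to CXCL8 by the same measure, followed by CXCL1 (1.4), IL6 (1.532), LIF (1.739), CCL20 (2.025) and CXCL16 (2.143). These distances are descriptions over samples that share their libraries.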
